A study of Mus musculus with 24 samples.

Results

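The 10 genes of cone phototransduction, chosen by gene symbol for their known roles in the cascade, were followed through RNA sequencing of mouse neural retina and eye cup. They are 10 of the 56748 genes counted: the cone opsins *Opn1sw* and *Opn1mw*, the cone transducin subunits *Gnat2*, *Gnb3* and *Gngt2*, the cone phosphodiesterase subunits *Pde6c* and *Pde6h*, the cone channel subunits *Cnga3* and *Cngb3*, and cone arrestin *Arr3*. All 10 had enough counts to be tested in each of the 12 comparisons. PRDM13-OE mice are heterozygous, with 1 copy of a cassette at *Rosa26* in the C57BL/6J background, in which a ubiquitous EF-1α promoter drives the transactivator rtTA and the TRE3G promoter drives human *PRDM13* with a 3xHA tag. Doxycycline (dox) switches the transgene on, and neither promoter confines it to cones. PRDM13-OE mice and their wildtype littermates were either untreated or drank water with 2 mg/ml dox and 10% sucrose over 72 hours. The untreated groups are labelled as having no doxycycline, and the labels give sucrose only with the dox water, so dox and sucrose cannot be told apart. The colony had screened negative by PCR for the *Rd1*, *Rd8* and *Gnat2* mutations. Each of the 4 groups held 3 mice, and each of the 12 mice gave 1 neural retina library and 1 eye cup library (RPE, choroid and sclera), so that 24 libraries fall into 8 groups of 3. Dox was started at P28. The labels give neither the sex nor the age of single mice.

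Cones are the photoreceptors of daylight and color vision. Light activates a cone opsin, which activates the α-subunit of transducin. Transducin removes the inhibitory subunit from the catalytic phosphodiesterase, cGMP is hydrolyzed, and the cGMP-gated channel in the outer segment closes. Arrestin then binds the phosphorylated opsin and ends the response. Rods use a parallel set of paralogs. Mouse cones commonly hold both opsins, in proportions that differ between dorsal and ventral retina, and cones are a small minority of mouse photoreceptors.

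Total counts ran from 16034800 to 21513207 per retina (median 17624652) and from 15825059 to 24908314 per eye cup (median 17863067). Levels are given as CPM, read counts scaled to a common library size, after TMM scaling over the 12 libraries of a tissue. A gene "passed" at an adjusted p under 0.05 in edgeR's quasi-likelihood test, with Benjamini-Hochberg adjustment over all genes tested, and was past both cutoffs where its log2-fold change was also beyond 1 in either direction. The human transgene was not analysed here. Counts at the mouse gene *Prdm13* gave 58.4, 60.3 and 52.8 CPM in the PRDM13-OE retinas with dox against 50.9, 49.2 and 46.7 in their wildtype counterparts. The log2 difference was 0.22 (SE 0.07, adjusted p = 0.048 by edgeR). Reads were mapped to the mouse build, so any reads of the human transgene counted at this gene cannot be told apart. By qPCR, the study found no change of mouse *Prdm13* after the same time on dox. The value does not check the transgene. Traces of other tissues differed between the retinas. The summed level of 8 lens crystallins was 10730 and 4444 CPM in wildtype retinas 1 and 2 with dox, 95.9 in the third, 4.43 to 773 in the untreated retinas and 3.22 to 23.8 in PRDM13-OE retinas with dox. The summed level of 5 red blood cell genes was 0.709 to 1.18 CPM in PRDM13-OE retinas with dox and 21.6 to 77.8 in the other 9. All 8 crystallins and all 5 blood genes fell in PRDM13-OE relative to wildtype retinas with dox. Their part in the differences described next was not tested beyond the fits given under the processing alternatives.

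In untreated wildtype mice, cone transcripts were found chiefly in the neural retina. All 10 genes were higher in the retina than in the eye cup of the same mice, where 25.7% of all genes tested were higher (edgeR with mouse as a block). The log2 difference ran from 1.45 (SE 0.26, adjusted p = 0.0044) for *Gngt2* to 3.24 (SE 0.38, adjusted p = 0.00091) for *Cngb3*, with a median of 2.93. The median over the 10 rod counterparts was 2.68. Without untreated wildtype eye cup 3, 4 of the 10 passed, all higher in the retina, where 14.0% of all genes were.

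Per transcript length, *Opn1sw* led the set in every group of retinas. In wildtype retinas with dox, *Opn1sw* measured 182 ± 11.7 FPKM (SD, n = 3), followed by *Opn1mw* at 112 ± 14.4, *Gnb3* at 92.3 ± 3.2, *Gnat2* at 56.8 ± 3.2, *Arr3* at 34.0 ± 2.5, *Pde6c* at 28.4 ± 3.3, *Gngt2* at 17.7 ± 1.3, *Pde6h* at 16.7 ± 0.46, *Cnga3* at 5.81 ± 0.63 and *Cngb3* at 4.94 ± 0.58. Neighbors in this order whose retinas overlapped were *Opn1mw* and *Gnb3*, *Gngt2* and *Pde6h*, and *Cnga3* and *Cngb3*. In PRDM13-OE retinas with dox the order was different: *Pde6c*, at 68.5 ± 5.7 FPKM, stood in second place behind *Opn1sw* at 87.7 ± 7.5, *Gngt2* at 18.1 ± 0.99 stood above *Gnat2* at 15.4 ± 0.76, and no neighbors overlapped. The 10 cone genes together made up 3.95% to 4.28% of the summed FPKM of the cone genes and their rod counterparts in wildtype retinas with dox and 2.69% to 2.78% in PRDM13-OE retinas with dox. The gene length of 7846 bases listed for *Pde6h* is the longest of the 10 and lowers its FPKM.

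**Figure D1:**
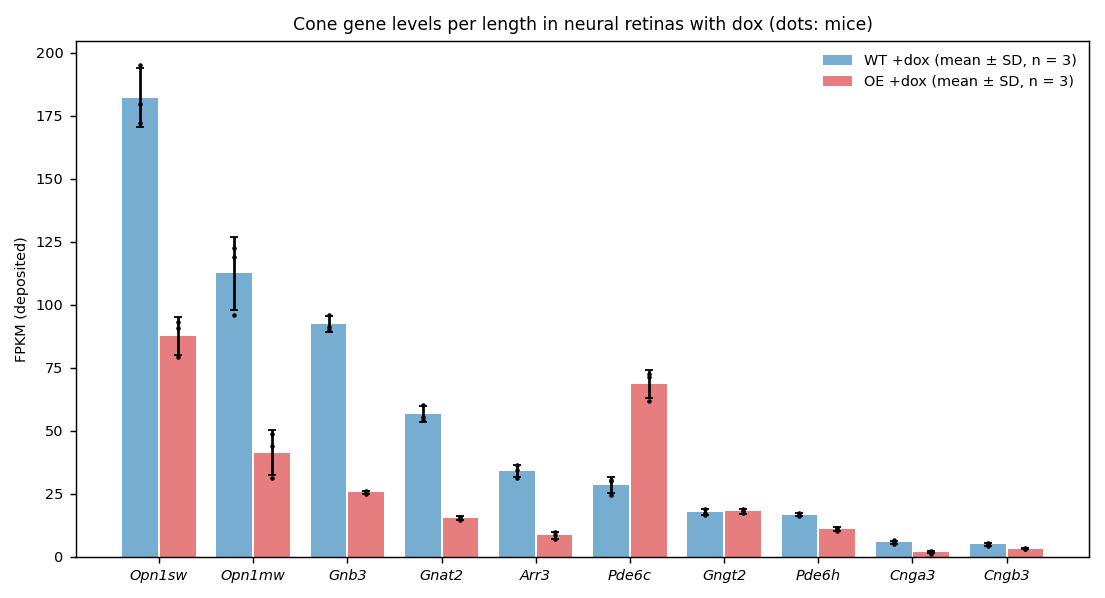
Deposited FPKM (y axis, starting at 0) of the 10 cone genes in neural retinas with dox, ordered by the wildtype mean; bars are means with SD of 3 mice, dots are mice. The PRDM13-OE bar is the taller one for *Pde6c* (68.5 against 28.4 FPKM) and, by less than the SD, for *Gngt2* (18.1 against 17.7).

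With dox, PRDM13-OE retinas differed from wildtype retinas in 9 of the 10 cone genes: 8 fell, *Pde6c* rose, and *Gngt2* did not pass. Of all 20560 genes tested in this comparison 7.51% fell and 5.01% rose. Past both cutoffs were 7 of the 10, with 6 lower and 1 higher, where 1.50% of all genes were lower and 0.905% higher. For those 9 genes no PRDM13-OE retina overlapped a wildtype retina with dox, as for 31.8% of all genes. The median log2-fold change of the 10 was -1.21, beside 0.01 over all genes. Fewer cones and less RNA per cone cannot be told apart in RNA from whole tissue.

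Both opsins fell. *Opn1sw* (chr6:29376670-29388467, GRCm39, minus strand), the short-wavelength opsin, measured 224, 264 and 257 CPM in PRDM13-OE retinas with dox and 540, 474 and 488 in wildtype retinas with dox. The 6 untreated retinas held 480 to 608 CPM, so that the 3 transgenic retinas with dox lay below the other 9. On the log2 scale the change was -1.02 (SE 0.07, adjusted p = 2.6e-06 by edgeR), close to the cutoff of 1, and it was beyond 1 in 11 of 16 alternative settings. *Opn1mw* (chrX:73171070-73194366, plus strand), the middle-wavelength opsin, measured 76.0, 54.3 and 84.0 CPM against 162, 200 and 203, and 177 to 208 without dox. Its log2-fold change was -1.41 (SE 0.14, adjusted p = 4.1e-05). The ratio of *Opn1sw* to *Opn1mw* counts within a library was 0.40 higher on the log2 scale in PRDM13-OE than in wildtype retinas with dox (SE 0.28). The groups overlapped, and the difference was not resolved (exact permutation test, two-sided, p = 0.3, where 3 mice against 3 allow no p below 0.1).

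The subunits of cone transducin parted. *Gnat2* (chr3:108000105-108008748, plus strand), the α-subunit that carries the signal from opsin to phosphodiesterase, measured 52.3, 48.1 and 52.4 CPM in PRDM13-OE retinas with dox and 176, 179 and 192 in wildtype retinas with dox. In the untreated retinas it measured 187 to 225 CPM, far from the 3 low values. It fell by 1.85 on the log2 scale (SE 0.06, edgeR adjusted p = 1e-08), which is 3.60-fold. *Gnb3* (chr6:124811203-124817238, minus strand), the β-subunit, measured 73.0, 76.0 and 73.8 CPM against 256, 259 and 269. It fell by 1.82 (SE 0.05, adjusted p = 3e-09), and the untreated retinas lay between 229 and 316 CPM. *Gnb3* is also the transducin-like β-subunit of ON bipolar cells, whose markers are described below. *Gngt2* (chr11:95728042-95736560, plus strand), the γ-subunit, measured 39.8, 35.7 and 37.6 CPM against 35.6, 33.5 and 38.1. Its groups overlapped, and its log2-fold change was 0.07 (SE 0.07, adjusted p = 0.6). The log2 ratio of *Gnat2* to *Gngt2* counts, a pair chosen after its values were seen, was 0.40, 0.43 and 0.48 in PRDM13-OE retinas with dox and between 2.18 and 2.89 in the other 9.

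*Pde6c* was the only one of the 10 that rose. *Pde6c* (chr19:38121229-38172406, plus strand) encodes the catalytic α′-subunit of the cone phosphodiesterase, the enzyme that hydrolyzes cGMP. It measured 204, 238 and 234 CPM in PRDM13-OE retinas with dox, 79.1, 96.1 and 96.4 in wildtype retinas with dox, and 79.7 to 123 in untreated retinas. All 3 transgenic retinas with dox lay above the other 9. On the log2 scale it rose by 1.31 (SE 0.09, adjusted p = 2.3e-06 by edgeR), a 2.48-fold rise. *Pde6h* (chr6:136900830-136945863, plus strand), the inhibitory γ′-subunit of the same enzyme, measured 100.2, 89.3 and 96.9 CPM against 139, 146 and 139, and fell by 0.57 (SE 0.06, adjusted p = 5.7e-05). The log2 ratio of *Pde6c* to *Pde6h* counts was 1.02, 1.41 and 1.27 in PRDM13-OE retinas with dox and -0.90 to -0.28 in the other 9, and that of *Pde6c* to *Gnat2* was 1.96, 2.31 and 2.16 against -1.23 to -0.77. These pairs were chosen after their values were seen. In both, the 3 transgenic retinas with dox lay outside the range of all others.

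Of the channel subunits, *Cnga3* (chr1:37253515-37302465, plus strand), which forms the cGMP-gated pore, measured 8.98, 5.60 and 9.78 CPM against 22.3, 24.6 and 27.2, and fell by 1.61 on the log2 scale (SE 0.16, edgeR adjusted p = 6.1e-05). *Cngb3* (chr4:19280850-19510623, plus strand), the modulatory subunit, measured 18.0, 16.0 and 16.2 CPM against 21.8, 26.0 and 27.0, and fell by 0.58 (SE 0.10, adjusted p = 0.0022). The groups did not overlap for either gene. The log2 ratio of *Cnga3* to *Cngb3* counts was -1.08 ± 0.40 (SD, n = 3) in PRDM13-OE and -0.02 ± 0.06 in wildtype retinas with dox, a difference of -1.07, for a pair chosen after its values were seen and so given without a test. Cone arrestin *Arr3* (chrX:99649103-99662099, plus strand), which quenches activated cone opsin, measured 22.2, 18.6 and 25.9 CPM against 79.7, 92.1 and 86.3. It had the largest change of the 10, -1.96 (SE 0.10, adjusted p = 2.7e-07), and the untreated retinas held 64.5 to 150.3 CPM.

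**Figure D2:**
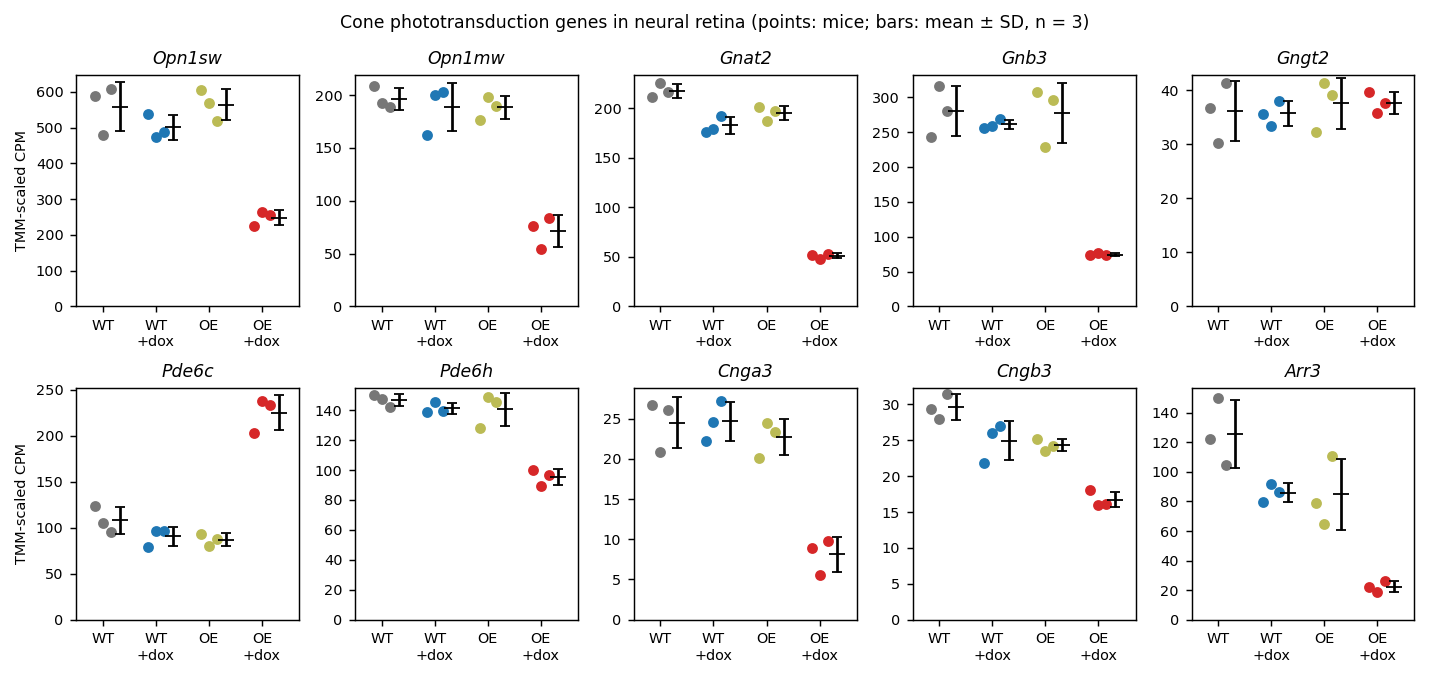
TMM-scaled CPM (y axes, each starting at 0) of each cone gene in 12 neural retinas, by group (WT, wildtype; OE, PRDM13-OE; with or without dox); points are mice, black marks are mean ± SD of 3. The 3 PRDM13-OE retinas with dox lie below all others for 8 genes, above all others for *Pde6c* (204 to 238 CPM) and among them for *Gngt2*.

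Some members share genomic sequence with a neighbor. *Opn1sw* overlaps *Calu* on the opposite strand over 397 exonic bases (15.5% of its exons), *Gngt2* overlaps *Abi3* on the opposite strand over 871 bases (21.9%), and *Pde6h* overlaps *Arhgdib* on the opposite strand over 136 bases (1.73%). The sources do not say whether reads were counted by strand, so reads there cannot be assigned. *Calu* had 130 to 138 CPM in PRDM13-OE retinas with dox and 151 to 161 in wildtype retinas with dox, and fell by 0.20 (SE 0.05, edgeR adjusted p = 0.033). *Abi3* stood at 0.824 to 1.42 CPM in these 6 retinas, with a log2-fold change of -0.07 (SE 0.31, adjusted p = 0.91), and *Arhgdib* at 2.19 to 5.93 CPM, with -0.73 (SE 0.23, adjusted p = 0.056). *Cngb3* overlaps *Gm11877* by position but shares 0 exonic bases with it.

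Against untreated PRDM13-OE retinas, in a comparison that shares the 3 PRDM13-OE retinas with dox, the same counts were found: 8 of the 10 fell, where 2.96% of all genes did, and *Pde6c* rose, where 2.04% did. Past both cutoffs were 6 lower (0.621% of all genes) and 1 higher (0.417%). The log2-fold changes were -1.19 for *Opn1sw*, -1.40 for *Opn1mw*, -1.94 for *Gnat2*, -1.90 for *Gnb3*, 1.37 for *Pde6c*, -0.56 for *Pde6h*, -1.48 for *Cnga3*, -0.54 for *Cngb3* and -1.93 for *Arr3*, with adjusted p between 5e-09 (*Gnat2*) and 0.0026 (*Cngb3*) in edgeR. *Gngt2* had SE 0.09 around a change that rounded to 0 (adjusted p = 1).

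Neither dox nor the uninduced transgene alone moved a cone gene past the threshold in edgeR with the count filter. Between wildtype retinas with and without dox, 0 of the 10 passed, and 0.00485% of all genes did. At an unadjusted p under 0.05, which 9.32% of all genes met, there were 4, all lower: *Arr3* at -0.54 (SE 0.11, adjusted p = 0.19), *Gnat2* at -0.25 (SE 0.06, adjusted p = 0.24), *Cngb3* at -0.25 (adjusted p = 0.45) and *Pde6c* at -0.25 (adjusted p = 0.48). DESeq2 passed *Gnat2* and *Arr3*, where 0.116% of all genes were lower, and edgeR without a count filter passed these and *Pde6c*, where 0.718% were. *Arr3* measured 122, 150.3 and 105 CPM in untreated wildtype retinas and 79.7, 92.1 and 86.3 with dox, so these groups did not overlap. Between untreated PRDM13-OE and untreated wildtype retinas 0 of the 10 passed, and 0.00484% of all genes did. Here too 4 were under an unadjusted p of 0.05, as 3.76% of all genes were, led by *Arr3* at -0.56 (SE 0.17, adjusted p = 0.99), which passed in edgeR without a count filter, where 0.182% of all genes were lower. Both comparisons use the same 3 untreated wildtype retinas, so the second is not independent of the first. DESeq2 passed none of the 10 here.

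**Figure D3:**
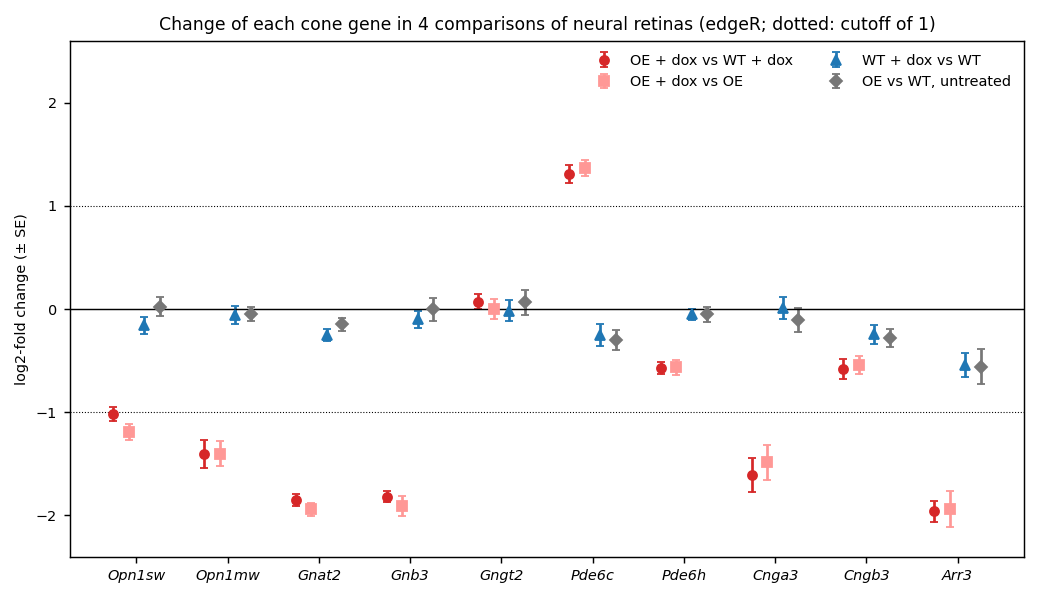
Log2-fold change with its SE (y axis) of the 10 cone genes in 4 comparisons of neural retinas by edgeR, with dotted lines at the cutoff of 1 in either direction. The 2 comparisons that include PRDM13-OE retinas with dox lie far from 0 for every gene but *Gngt2*, with *Pde6c* at 1.31 and 1.37; the other 2 lie between -0.56 and 0.06.

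The difference of the 2 dox effects was tested over all 12 retinas. This interaction of genotype with dox passed for 8 of the 10, with 7 lower, where 1.83% of all genes passed, and *Pde6c* higher, where 1.19% passed. It was -1.81 for *Gnb3* (SE 0.14, edgeR adjusted p = 5.9e-07), -1.69 for *Gnat2* (SE 0.08, adjusted p = 8.3e-09), -1.49 for *Cnga3* (SE 0.22), -1.39 for *Arr3* (SE 0.23), -1.35 for *Opn1mw* (SE 0.17), -1.03 for *Opn1sw* (SE 0.12), -0.51 for *Pde6h* (SE 0.09) and 1.62 for *Pde6c* (SE 0.14, adjusted p = 2.7e-06). *Cngb3*, which fell in both comparisons of induced retinas, had an interaction of -0.29 (SE 0.13, adjusted p = 0.31), and *Gngt2* one of 0.02 (SE 0.15, adjusted p = 0.98). With robust fitting *Arr3* no longer passed (adjusted p = 0.057).

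The rod genes of the same steps had smaller changes than the 9 cone genes that passed. Of the 10 rod counterparts 7 fell and 0 rose relative to wildtype retinas with dox, where 7.51% and 5.01% of all genes did. None was past the cutoff of 1, and the median was -0.16. Rod transducin *Gnat1* fell by 0.43 (SE 0.05), the channel subunit *Cnga1* by 0.48 (SE 0.05) and rod arrestin *Sag* by 0.48 (SE 0.08, edgeR adjusted p = 0.0017). *Gngt1* fell by 0.15, *Pde6g* by 0.15 and *Cngb1* by 0.16, with adjusted p between 0.042 and 0.05. The rod phosphodiesterase genes *Pde6a* and *Pde6b* had changes of -0.04 and -0.03 (adjusted p = 0.63 and 0.52), beside the rise of *Pde6c*, and *Gnb1* one of -0.03 (adjusted p = 0.6), beside the fall of *Gnb3*.

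Ratios of a cone gene to its rod paralog within a library need no scaling between libraries. On the log2 scale, *Gnat2* to *Gnat1* was 1.42 lower in PRDM13-OE than in wildtype retinas with dox, from a mean of -5.37 ± 0.12 to -6.79 ± 0.12 (SD, n = 3). *Gnb3* to *Gnb1* went from -4.40 ± 0.02 to -6.19 ± 0.06, *Arr3* to *Sag* from -5.51 ± 0.17 to -6.99 ± 0.27, and *Cnga3* to *Cnga1* from -5.10 ± 0.12 to -6.27 ± 0.39. *Pde6c* to *Pde6a* went from -4.85 ± 0.18 to -3.50 ± 0.07. In these 5 ratios and in *Pde6h* to *Pde6g* the PRDM13-OE retinas with dox lay outside the range of the other 9 retinas, each with an exact permutation p of 0.1, the smallest that 3 mice against 3 allow. After Benjamini-Hochberg adjustment over the 15 retina ratios this p was 0.115. For *Cngb3* to *Cngb1* the 3 lay outside the wildtype retinas with dox (p = 0.1, exact permutation test) but not outside all 9, and for *Gngt2* to *Gngt1*, 0.23 higher, they overlapped (p = 0.2, exact permutation test).

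**Figure D4:**
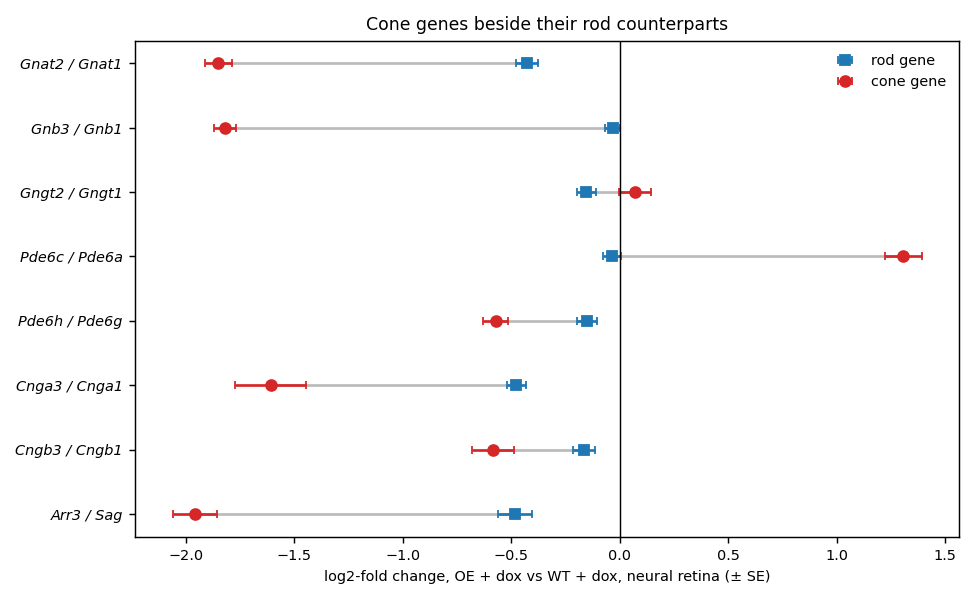
Log2-fold change with SE (x axis) of 8 cone genes (red circles) and their rod counterparts (blue squares) between PRDM13-OE and wildtype neural retinas with dox. The rod genes lie between -0.48 and -0.03, and the cone genes between -1.96 (*Arr3*) and 1.31 (*Pde6c*).

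Genes of the shutoff and feedback steps, many of them used by both rods and cones, changed in the same comparison. Of 12 in the list, 9 fell and 2 rose, where 7.51% and 5.01% of all genes did. Past both cutoffs were 2, each lower, as 1.50% of all genes were. The median log2-fold change was -0.45. *Rgs9*, whose protein speeds the GTP hydrolysis of transducin, measured 131, 144 and 159 CPM in PRDM13-OE retinas with dox against 368, 384 and 408, and fell by 1.42 (SE 0.07). *Guca1a*, a guanylate cyclase activator used in cones and rods, fell by 1.81 (SE 0.41, adjusted p = 0.013) at low levels, 0.220 to 1.02 against 1.89 to 2.13 CPM. The opsin kinase *Grk1*, which in mouse phosphorylates both rod and cone opsins, fell by 0.85 (SE 0.07), and the exchanger *Slc24a1* of rods fell by 0.81 (SE 0.05). *Gnb5*, the partner of RGS9, rose by 0.31 and the guanylate cyclase *Gucy2e* by 0.23.

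Among 13 regulators of photoreceptor fate and gene expression, 4 fell and 3 rose, where 7.51% of all genes fell and 5.01% rose. *Nr2e3*, a nuclear receptor that represses cone genes in rods, fell by 1.40 (SE 0.10, edgeR adjusted p = 3.8e-06), from 449, 455 and 569 to 188, 167 and 207 CPM. *Samd11* fell by 1.30 (SE 0.08) and *Prdm1* by 1.24 (SE 0.12). *Nrl*, the rod-determining factor, fell by 0.50 (SE 0.03). *Thrb*, the thyroid hormone receptor that directs the middle-wavelength opsin, rose by 0.31 (SE 0.07, adjusted p = 0.019), from 75.5 ± 4.8 to 93.8 ± 8.2 CPM, and *Rorb* rose by 0.39. The general photoreceptor factor *Crx* had -0.05 (adjusted p = 0.34).

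Genes known to be enriched in cones but outside the 10 members did not share the size of the change. The list is not separate from those above: *Slc24a2* is also among the shutoff and feedback genes, and *Thrb*, *Rxrg* and *Sall3* are among the regulators. Of 6 such genes, 2 fell (*Slc24a2*, the cone exchanger, by 0.29 and *Ccdc136* by 0.21), *Thrb* rose, and *Rxrg*, *Sall3* and *Kcne2* had -0.17, -0.16 and -0.14 without passing. Their summed level was 355, 347 and 372 CPM in PRDM13-OE and 358, 392 and 392 in wildtype retinas with dox, while that of the 10 cascade genes was 818, 846 and 887 against 1511, 1530 and 1567. In the first sum the groups overlapped, and in the second they did not. Since *Gnb3* also belongs to ON bipolar cells, 10 markers of these cells are given beside it: 6 fell, 0 rose, and the median was -0.36, with *Lrit3* at -0.80, *Trpm1* at -0.62, *Grm6* at -0.61 and *Gng13* at -0.60. Their summed level was 1066, 1035 and 988 CPM against 1208, 1286 and 1271. No marker of this list reached the log2-fold change of *Gnb3*. In other lists, 6 of 8 Müller glia genes fell and 2 rose (*Clu* -0.92, *Aqp4* 0.63, *Vim* -0.55, *Rlbp1* -0.45). *Vim* had 5894 and 5923 counts in the 2 wildtype retinas with dox highest in crystallins and 3519 in the third. PRDM13-OE retinas with dox had 3263 to 3701. Lower too were 2 of 8 amacrine genes (*Gad1* -0.30, *Gad2* -0.27) and 2 of 8 ganglion cell genes (*Slc17a6* -0.47, *Nefm* -0.28). Among RPE and pigment genes 5 of 10 fell (*Pmel* -1.99, *Tyrp1* -1.68, *Tyr* -0.90, *Rgr* -0.63), and 0 of 6 fibroblast genes passed. Beside all these counts, 7.51% of all genes fell and 5.01% rose. The part of these lists in the cone values was not tested.

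The genes whose levels most resembled a cone gene over the 12 retinas were found by Pearson's r of log2(CPM + 0.5) among 11856 genes with a mean of at least 5 CPM. The 12 retinas share the group structure, so these values describe likeness and carry no p. *Gnat2* was closest to *Cdhr1* (r = 0.994), *Tulp1* and *Aipl1*, *Gnb3* to *Rtbdn* (r = 0.993), *Tulp1* and *Gnat2*, *Opn1sw* to *Egflam* (r = 0.983), *Slc38a3* and *Lyar*, and *Arr3* to *Tafa3* (r = 0.983), *Wdr89* and *Rdh8*. *Opn1mw* and *Cnga3* were closest to each other (r = 0.990), with *AI847159* and *Adipor1* next for *Opn1mw* and *Acsl1* and *Lrit2* for *Cnga3*. *Pde6c* was closest to *Eif3e* (r = 0.972), *Gulp1* and *Gm32261*. Within the set, *Pde6c* ran against *Gnat2* (r = -0.93) and *Gnb3* (r = -0.94), and *Gngt2* followed neither (r = -0.18 and -0.25).

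RefSeq promoter sequences, from 250 bases before to 50 after a transcript start, were at hand for 6 of the 10 genes, as 7 windows with 2 for *Cnga3*. *Gnb3*, *Gngt2*, *Pde6c* and *Cngb3* had no entry. The 3 windows shown belong to genes that fell past both cutoffs, and each holds a match to one of 5 short motifs searched on both strands after the expression values were seen. Each window was placed on GRCm39 by 1 exact match, and capitals mark the motif matches.
Gnat2, chr3:108000132-108000431, plus strand: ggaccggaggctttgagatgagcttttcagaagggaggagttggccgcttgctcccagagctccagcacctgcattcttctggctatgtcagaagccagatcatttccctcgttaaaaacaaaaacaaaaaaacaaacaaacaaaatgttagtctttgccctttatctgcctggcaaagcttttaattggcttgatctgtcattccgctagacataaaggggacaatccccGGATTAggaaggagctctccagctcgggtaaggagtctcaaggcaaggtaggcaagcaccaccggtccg
Arr3, chrX:99648853-99649152, plus strand: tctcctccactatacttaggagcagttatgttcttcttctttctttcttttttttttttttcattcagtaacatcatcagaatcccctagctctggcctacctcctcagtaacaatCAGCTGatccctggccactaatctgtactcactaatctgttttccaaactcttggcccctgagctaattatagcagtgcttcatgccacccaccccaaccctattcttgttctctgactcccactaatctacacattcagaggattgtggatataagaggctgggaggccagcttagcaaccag
Opn1sw, chr6:29380463-29380762, minus strand: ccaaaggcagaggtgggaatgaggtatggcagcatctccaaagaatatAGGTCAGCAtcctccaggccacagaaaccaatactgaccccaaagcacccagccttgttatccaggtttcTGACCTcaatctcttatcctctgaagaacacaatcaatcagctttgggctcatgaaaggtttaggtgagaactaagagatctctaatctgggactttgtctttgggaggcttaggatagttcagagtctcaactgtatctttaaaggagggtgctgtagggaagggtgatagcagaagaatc
In *Gnat2*, the capitals are TAATCC on the reverse strand, the core recognized by the photoreceptor factors CRX and OTX2, starting 19 bases before the transcript start. In *Arr3*, they are the E-box CAGCTG, 134 bases before the start, which 1 window of *Cnga3* holds too, 169 bases before its start. In *Opn1sw*, AGGTCA, a nuclear receptor half-site, lies 202 bases before the start and again, on the reverse strand, 132 bases before it, and the first overlaps a reverse TGCTGA, part of the element recognized by NRL, 199 bases before the start. Of all 32851 promoter windows of this length, 7.06% hold TAATCC, 16.3% CAGCTG, 16.3% AGGTCA, 19.5% TGCTGA and 15.1% AAGTCA, the half-site of NR2E3, which none of the 7 cone windows held. The windows of *Opn1mw* and *Pde6h* held none of the 5. The matches are descriptions of letters and were not measured as binding sites.

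The eye cups held cone transcripts, and rod transcripts at levels that varied widely between mice. The summed rod counterparts ran from 3395 to 23922 CPM in untreated wildtype eye cups, were 46894, 35850 and 24273 in wildtype eye cups with dox, 7404 to 21445 in untreated PRDM13-OE eye cups, and 12092, 5771 and 37404 in PRDM13-OE eye cups with dox. Thus PRDM13-OE eye cup 3 with dox held far more rod RNA than the other 2 of its group. The summed RPE and pigment genes ran from 29099 to 45744 CPM in untreated wildtype eye cups, 10084 to 21641 in wildtype eye cups with dox, 22780 to 53778 in untreated PRDM13-OE eye cups and 7867 to 22647 in PRDM13-OE eye cups with dox.

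Traces of other tissues differed between the eye cups too. The summed blood genes were at 12.4 to 14.3 CPM in PRDM13-OE eye cups with dox, 238 to 559 in wildtype eye cups with dox and 491 to 3459 in untreated eye cups. The summed lens crystallins were at 57.9, 307 and 4.97 CPM in PRDM13-OE eye cups with dox, 555 to 2832 in wildtype eye cups with dox and 58.8 to 3289 in untreated eye cups. Their part in the cone values was not tested.

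In eye cups of mice with dox, 0 of the 10 genes passed edgeR's test, where 0.0184% of all genes did. At an unadjusted p under 0.05, which 8.24% of all genes met, there were 5, all lower: *Gnb3* at -2.42 (SE 0.61), *Cnga3* at -2.37 (SE 0.63), *Opn1mw* at -2.31 (SE 0.66), *Arr3* at -2.23 (SE 0.61) and *Gnat2* at -1.75 (SE 0.51), each with an adjusted p of 0.6. *Gnat2* measured 10.3, 13.3 and 42.0 CPM in PRDM13-OE eye cups with dox and 93.0, 77.9 and 56.0 in wildtype eye cups with dox, without overlap. *Pde6c* measured 38.2, 23.4 and 134 CPM against 42.3, 42.4 and 22.5, and *Gngt2* 13.8, 7.11 and 46.7 against 22.9, 15.2 and 12.1, both with overlap and with eye cup 3 the highest. Without PRDM13-OE eye cup 3, 6 of the 10 passed, all lower, *Opn1sw* being the sixth, where 6.91% of all genes were lower, and *Pde6c* stood at -0.12 and *Gngt2* at -0.59. DESeq2 passed *Gnb3* and *Cnga3*, where 0.276% of all genes were lower.

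With the summed rod level as a covariate over all 12 eye cups, *Gnb3* was lower by 1.63 on the log2 scale (SE 0.21, edgeR adjusted p = 0.04) and *Pde6c* higher by 1.60 (SE 0.19, adjusted p = 0.027) in eye cups of PRDM13-OE than of wildtype mice with dox, where 0.0126% of all genes were lower and 0.0126% higher. The rod sum itself differed between these genotypes in the retina, with a mean of 55559 CPM in PRDM13-OE and 70900 in wildtype retinas with dox. Values relative to the rod sum therefore also carry any change of the rod genes. Against untreated PRDM13-OE eye cups, where 0 passed without the covariate and 0.0139% of all genes did, *Pde6c* was higher by 1.77 with it (SE 0.18, adjusted p = 0.011), as 0.0294% of all genes were. Without it *Pde6c* was the 1 member at an unadjusted p under 0.05, which 4.14% of all genes met, with a change of 2.14 (SE 0.68, adjusted p = 0.97). Ratios within a library were added after the data were seen. The log2 ratio of *Pde6c* to the summed rod counterparts was -8.30, -7.95 and -8.12 in PRDM13-OE eye cups with dox and between -10.11 and -9.05 in the other 9. That of *Gnb3* was -9.50, -9.50 and -9.70, below the -8.82 to -7.98 of the other 9, and that of *Opn1mw* -9.72, -10.42 and -10.21, below their -9.08 to -8.47. *Arr3*, at -11.05, -10.82 and -11.35, lay below their -10.54 to -9.64. *Cnga3* was 1.51 lower than in wildtype eye cups with dox (SE 0.22) and *Gngt2* 1.36 higher (SE 0.08), without overlap between these 2 groups but within the range of the other 9 for at least 1 eye cup. These 6 ratios each had an exact permutation p of 0.1, the smallest possible, or 0.15 after Benjamini-Hochberg adjustment over the 15 ratios compared. *Gnat2*, at -10.20, -8.76 and -9.80 against -8.98, -8.85 and -8.76 in wildtype eye cups with dox, did not separate (difference -0.73, SE 0.43, exact permutation p = 0.4). Nor did *Opn1sw* (-0.46, SE 0.37, exact permutation p = 0.3) or *Cngb3* (0.01, SE 0.17, exact permutation p = 1). The ratio of *Pde6c* to *Gnat2* was 1.90, 0.81 and 1.68 against -1.97 to -0.88. For *Pde6h* to the rod sum the groups overlapped (-9.44 ± 0.26 against -9.35 ± 0.10, SD, n = 3).

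In the other eye cup comparisons 0 of the 10 passed and 0% of all genes did (edgeR). Between wildtype eye cups with and without dox all 10 had a positive log2-fold change, from 0.42 (*Gngt2*) to 1.87 (*Gnb3*, SE 0.50, adjusted p = 0.077), with 4 at an unadjusted p under 0.05, which 29.9% of all genes met. DESeq2 passed 3 of them (10.6% of all genes were higher), edgeR without a filter 1 (3.19%), and leaving out untreated wildtype eye cup 1 gave 3 (9.36%). Between untreated PRDM13-OE and wildtype eye cups none was under an unadjusted p of 0.05, by edgeR, as 1.87% of all genes were, and the changes ran from -0.53 (*Arr3*) to 0.70 (*Opn1sw*), with 0 passed by DESeq2. For the interaction of genotype with dox in the eye cup 3 were under an unadjusted p of 0.05, as 6.40% of all genes were (*Gnat2* -1.72, *Gnb3* -2.70 and *Cnga3* -2.82), and DESeq2 passed 0. The difference between the genotype effects in retina and eye cup of the mice with dox was 0.12 (SE 0.47) for *Gnat2*, 0.84 (SE 0.59) for *Gnb3* and 0.71 (SE 0.60) for *Pde6c*, each as retina minus eye cup. Of the 10, 0 passed and 0 were under an unadjusted p of 0.05 (edgeR), while 0% and 5.32% of all genes were. Without the retina of PRDM13-OE mouse 3 with dox, 5 of the 10 passed, all with a positive difference, as 6.84% of all genes had, and without its eye cup also 5, where 6.96% had. With the mouse as a block, either omission takes mouse 3 out of the contrast, so these are not separate checks.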

How the data were processed

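Messenger RNA of 12 neural retinas and 12 eye cups was selected by poly(T) beads and sequenced on Illumina platforms by Novogene. The submitters' processing notes name CASAVA and HISAT2, without versions, and the GRCm39 build. The counting tool, annotation release and use of strand are not given in the sources used here. The authors deposited read counts per gene, without normalization, and FPKM values, which the authors computed from gene length and read count. Their columns of group means, fold changes and p-values were not used.

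edgeR 4.0.16 under R 4.3.3 was fitted to the counts with TMM factors and the quasi-likelihood test, without robust fitting, for every gene that reached a total of 10 counts in the compared libraries. Benjamini-Hochberg adjustment ran over all genes tested. The cutoffs, taken from the study, were 0.05 for the adjusted p and 1 for the absolute log2-fold change. FPKM was used only to order levels per length. Retina and eye cup of 1 mouse share its name in the labels, so the mouse was a block in comparisons across tissues. Within a tissue the groups hold different mice, and their numbers do not pair them. No 2 libraries were copies. In simulated data with known log2-fold changes of 1, the test recovered most changed genes with retina counts but few with eye cup counts, so an eye cup gene that missed the threshold may still differ. DESeq2 1.42.0, other scalings and filters, covariates and leaving out each library were alternatives. Ratios and figures used python 3.11.15, numpy 2.4.6, pandas 2.3.3, scipy 1.17.1 and matplotlib 3.10.9. Genes were matched to GENCODE positions for overlaps.

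The members, the gene lists and the tests were chosen with earlier results of these data known. Named genes were the members, their rod counterparts, up to 4 genes with the largest passing change of each other list, the 3 genes most like each member past both cutoffs, and overlapping genes. Outside this rule and chosen after their values were seen are *Gnb5*, *Gucy2e*, *Rorb*, *Crx*, *Rxrg*, *Sall3*, *Kcne2*, *Pde6b* and, as a check, *Prdm13*. The number of mice, 3 in a group, limits the precision of each comparison. Some single-gene values are not reported here.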

Additional observations from a re-analysis of the deposited data

Results flagged for a closer look

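The effect of 72 hours of dox on the retina differed between the genotypes for 8 of the 10 cone genes, by the interaction term over 12 retinas (edgeR, adjusted p under 0.05), with 7 lower and 1 higher, where 1.83% of all genes were lower and 1.19% higher. Given as the dox effect in PRDM13-OE minus that in wildtype retinas on the log2 scale, it was -1.03 for *Opn1sw*, -1.35 for *Opn1mw*, -1.69 for *Gnat2*, -1.81 for *Gnb3*, 1.62 for *Pde6c*, -0.51 for *Pde6h*, -1.49 for *Cnga3* and -1.39 for *Arr3*, which no longer passed with robust fitting (adjusted p = 0.057). These 8 are listed because they passed this test, which was run for all 10. *Cngb3* and *Gngt2* did not pass it. Lens crystallin and blood transcripts differed between the same groups of retinas, and their part in these values was not tested.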

How the results depend on the processing

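In PRDM13-OE against wildtype retinas with dox, 9 of the 10 cone genes passed in all 16 alternative settings, among them a crystallin covariate and, added after the data were seen, a fit without the 2 wildtype retinas with dox highest in crystallins. Past both cutoffs were 6 or 7. The log2-fold change of *Pde6c* stayed between 1.21 and 1.40 and that of *Gnat2* between -1.94 and -1.76. A replicate block on the mouse number gave 9 passed and 7 past both cutoffs, as without it, and changed no other count of members passed.

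*Gngt2* had no stable sign: -0.082 with the crystallin covariate and -0.029 without the 2 retinas. Against untreated PRDM13-OE retinas it was 0.062 with library size in place of TMM, 0.0017 with no filter, 0.0049 with the replicate block, 0.0012 with all 12 retinas in 1 fit, and -0.10 to 0.075 with each retina left out. With robust fitting the retina interaction of *Arr3* no longer passed (adjusted p = 0.057). That of *Gngt2* was -0.091 to 0.12 with each retina left out.

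Between wildtype retinas with and without dox 2 members passed by DESeq2 and 3 with no filter, and between the untreated genotypes 1 with no filter, in place of 0. The eye cups were less stable. Between genotypes with dox 2 passed both cutoffs by DESeq2, 2 with the rod covariate and 0 to 6 with each eye cup left out, and *Gngt2* ranged from -0.59 to 0.88, *Pde6c* from -0.12 to 1.30, with *Pde6h* at 0.021 under the rod covariate. Against untreated PRDM13-OE eye cups 1 passed with the rod covariate. Between wildtype eye cups with and without dox 3 passed by DESeq2, 1 with no filter and 0 to 3 with each eye cup left out. For retina against eye cup 4 to 10 passed, and for genotype by tissue 0 to 5, with each library left out. In these contrasts, with the mouse as a block, leaving out either library of a mouse takes that mouse out. The cause of the shifts was not tested.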
